A study of Mus musculus with 34 samples.

Results

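This comparison set liver macrophages against hepatocytes of control mice 48 h after an injection of carbon tetrachloride (CCl4). It rested on 6 of the 34 samples of the series, 3 macrophage libraries and 3 hepatocyte libraries from mice 12, 15 and 16. The libraries were paired by the number in their titles, which was read as the mouse number. The labels do not state outright that libraries of the same number came from the same mouse. The genes compared were the 22586 present in the count tables of both cell types. All 3 mice had a mixed B6;129P background and floxed alleles of both Yap and Taz (Yap fl/fl Taz fl/fl), and they had no Opn-iCreERT2, the tamoxifen-inducible Cre under the osteopontin promoter that the knockout mice of the study carried. Each had received tamoxifen at 1.6 mg/kg on 5 days at 7 to 8 weeks of age, a washout of 3 weeks and then CCl4 at 1 ml/kg. Macrophages were sorted from the nonparenchymal fraction as F4/80+ CD45+ cells that were negative for a UV channel and for propidium iodide. Hepatocytes were separated at low speed, passed through Percoll and sorted as propidium iodide-negative cells. Because F4/80 (Adgre1) and CD45 (Ptprc) were used for the sort, their transcripts describe the gate and are no result. Macrophage and hepatocyte libraries of 4 uninjured control mice (6, 7, 8 and 9), which had the same genotype and tamoxifen but no CCl4, were used to ask whether the difference between the cell types changed with CCl4. Separate animals were named only by these numbers, so the p-values measure the spread between these samples.

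CCl4 is turned into a toxic radical by cytochrome P450 enzymes, above all Cyp2e1, in the hepatocytes around the central veins, and these cells die. The surviving hepatocytes then enter the cell cycle and divide. Resident macrophages of the liver sinusoids, the Kupffer cells, and monocytes that enter from the blood clear the debris, release cytokines and chemokines and break down matrix. Hepatocytes make most plasma proteins, complement and clotting factors, and they hold the enzymes of detoxification, bile acid, urea and glucose metabolism under the control of factors such as Hnf4a and the Foxa proteins. Macrophage identity depends on PU.1 (Spi1) and the Csf1 receptor.

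The macrophage libraries held 906619, 2015823 and 1093583 counts for mice 12, 15 and 16, and the hepatocyte libraries held 4910846, 5790583 and 2411576. A count of 3 was worth 0.518 to 3.31 CPM (counts scaled to a common library size), so a transcript listed at 0 may lie below the depth. All levels below are CPM scaled by the trimmed mean of M values (TMM) and are given for mice 12, 15 and 16 in that order. They count tags at transcript 3′ ends, and such bulk values cannot tell fewer cells of a type apart from less RNA per cell. The macrophage library of mouse 12 stood apart. Its 34 plasma protein genes summed to 16.9% of their level in the hepatocyte library of the same mouse, against 1.41% for mouse 15 and 0.915% for mouse 16. Its 13 stellate cell and fibroblast markers and 13 sinusoidal endothelial markers also had high sums, as given below. Uninjured macrophage libraries held 9.67% to 13.8% of the plasma protein level of their hepatocyte libraries. In the other direction, 23 macrophage and leukocyte genes summed in the hepatocyte libraries to 6.91%, 3.81% and 5.52% of their macrophage level. The part of these transcripts in any difference was not tested, and counts and medians of hepatocyte lists are given with and without mouse 12. Hepatocyte libraries 12 and 15 belonged to a first series of file numbers, and hepatocyte library 16 and all 3 macrophage libraries to a second. Only the pair of mouse 16 thus lay within 1 series, and series and cell type cannot be told apart in the other 2. The description of hepatocyte library 15 names a knockout, whereas its genotype and group labels name a control, and it was kept as a control.

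**Figure D1:**
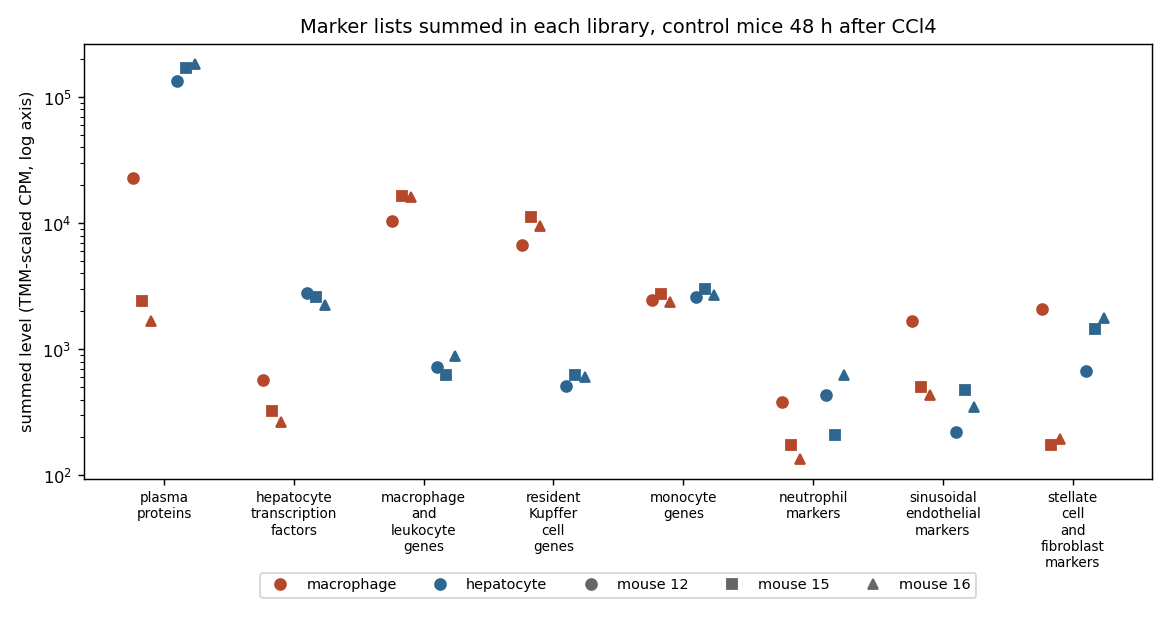
Summed level of 8 marker lists in each library, in TMM-scaled CPM on a log axis, with macrophages left of hepatocytes and a symbol for each mouse. Plasma protein genes summed to 22929 CPM in the macrophage library of mouse 12 and to 2406 and 1689 CPM in those of mice 15 and 16, and to at least 135642 CPM in the hepatocyte libraries.

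Of 10690 genes with enough counts, 4145 (38.8%) differed between the cell types at an adjusted p under 0.05 in edgeR's quasi-likelihood test with the mouse as a block. Macrophage levels were higher for 2079 (19.4%) and lower for 2066 (19.3%). For 4085 of the called genes the groups did not overlap, and this held for 6195 of all 10690 tested (58%). A difference beyond 2-fold was called for 2189 genes (20.5%), of which 1267 (11.9%) were higher and 922 (8.62%) lower. The counts depended on the libraries: without mouse 15, 551 genes were called (487 higher and 64 lower) and 0 beyond 2-fold, and without mouse 16, 1475 (1001 higher and 474 lower) and 676 beyond 2-fold. The 0 came from edgeR with 2 pairs, where 2287 genes passed the same test at an unadjusted p under 0.05. No other tool was run without mouse 15. Scaling by library totals alone moved the median of all genes to 0.58 on the log2 scale, against -0.03 with TMM, and gave 3657 genes higher and 1148 lower. Under that scaling, changes are read against 0.58, and the split of calls is no measure of which cell type used more genes.

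**Figure D2:**
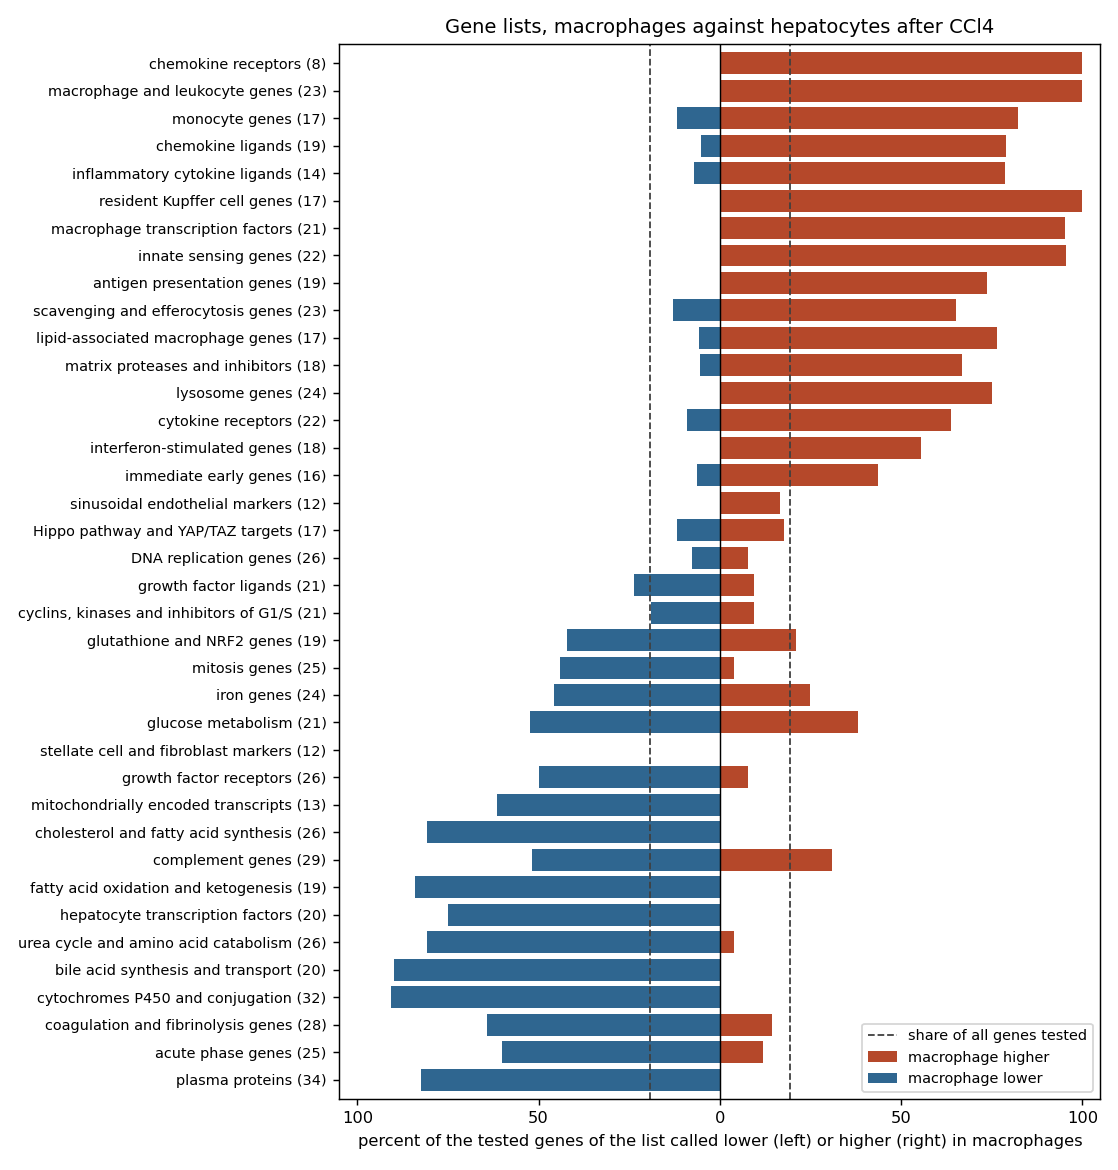
Percent of the tested genes of each list called higher (right) or lower (left) in macrophages, with the number of tested genes in brackets. Dashed lines mark the shares of all tested genes, 19.4% higher and 19.3% lower, and the lists run with falling median from the chemokine receptors at the top to the plasma proteins at the bottom.

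The transcripts at the highest mean level in macrophages were mt-Rnr2, Actb, mt-Rnr1, mt-Nd4 and mt-Nd1, and in hepatocytes mt-Rnr2, Alb, mt-Rnr1, mt-Nd4 and mt-Nd2. Together mt-Rnr1 and mt-Rnr2 made up 18.9% and 16.7% of counts in hepatocyte libraries 12 and 15, of the first series of file numbers. They made up 5.21% in hepatocyte library 16, of the second series. The ranking by mean thus need not hold in each library, and the part of the series was not tested. Actb, cytoskeletal actin, had 11670.1, 19039 and 18687 CPM in macrophages and 3708, 3828 and 4128 CPM in hepatocytes (log2 fold change 2.05, SE 0.444, adjusted p = 0.0182). Albumin (Alb), the main plasma protein, had 7856, 445 and 182 CPM in macrophages and 41931, 54060.3 and 65043 CPM in hepatocytes (log2 fold change -6.26, SE 1.74, adjusted p = 0.0478). Its macrophage level in mouse 12 was far above that in mice 15 and 16, and without mouse 12 its log2 fold change was -7.72. Alb was called in 11 of 16 alternative settings, with an adjusted p of up to 0.326.

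Among genes of at least 100 CPM, the 8 with the largest differences toward macrophages included Gpnmb, Acod1, Tlr13, the sort marker Adgre1, Nfkbid, Timd4 and Cd83. The remaining gene belongs to the erythroid and platelet markers, which summed to 182, 1023 and 759 CPM in macrophages and 11.3, 21.2 and 21.2 CPM in hepatocytes. Gpnmb, a membrane glycoprotein of lipid-laden macrophages, had 217, 325 and 764 CPM in macrophages and 5.41, 5.75 and 19.8 CPM in hepatocytes (log2 fold change 5.46, SE 0.287, adjusted p = 0.00117). Acod1, which makes the antimicrobial metabolite itaconate, had 55.3, 160.0 and 106 CPM in macrophages and 1.80, 3.54 and 1.93 CPM in hepatocytes (log2 fold change 5.37, SE 0.309, adjusted p = 0.00117). Tlr13, the endosomal sensor of bacterial ribosomal RNA, had 93.9, 108 and 137 CPM in macrophages and 4.38, 2.65 and 1.93 CPM in hepatocytes (log2 fold change 5.17, SE 0.398, adjusted p = 0.00117). In these 3 genes the lowest macrophage library lay above the highest hepatocyte library. Nfkbid, a nuclear IkB protein, had 95.7, 217 and 154 CPM in macrophages and 2.83, 5.30 and 7.71 CPM in hepatocytes (log2 fold change 4.91, SE 0.322, adjusted p = 0.00117). Cd83, a marker of activated antigen-presenting cells, had 238, 761 and 653 CPM in macrophages and 10.1, 17.7 and 24.6 CPM in hepatocytes (log2 fold change 4.91, SE 0.317, adjusted p = 0.00117). Both were lowest in mouse 12 among the macrophage libraries, and every macrophage library lay above every hepatocyte library.

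The 8 genes with the largest differences toward hepatocytes included Igfbp1, Fgb, Pzp, Ahsg, G6pc and Cyp4a10. Igfbp1, a secreted binding protein for insulin-like growth factors, had 189, 8.75 and 2.91 CPM in macrophages and 1479, 4096 and 1729 CPM in hepatocytes (log2 fold change -7.28, SE 1.92, adjusted p = 0.0451). Pzp, a plasma protease inhibitor, had 419, 32.9 and 7.28 CPM in macrophages and 4649, 4593 and 4824 CPM in hepatocytes (log2 fold change -6.71, SE 1.57, adjusted p = 0.0342). Ahsg, the plasma protein fetuin A, had 2323, 124 and 63.3 CPM in macrophages and 18375, 27004 and 17203 CPM in hepatocytes (log2 fold change -6.60, SE 1.59, adjusted p = 0.0351). These 3 genes followed the pattern of albumin, with the macrophage library of mouse 12 above those of mice 15 and 16 and below every hepatocyte library. Without mouse 12 the log2 fold change was -8.996 for Igfbp1, -8.06 for Pzp and -7.94 for Ahsg, with adjusted p = 2.83e-06 for Igfbp1, 8.29e-06 for Pzp and 1.67e-05 for Ahsg. Because mouse 12 had the highest macrophage level of these genes, a larger difference without it was fixed in advance. Over 16 alternative settings Igfbp1 was called in 12, and Pzp and Ahsg in 13 each. The highest adjusted p over these settings was 0.316 for Igfbp1, 0.266 for Pzp and 0.272 for Ahsg.

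The promoters of genes from both sides are shown because macrophage and hepatocyte identity rest on different DNA-binding factors, PU.1 in macrophages and HNF4 and HNF1 in hepatocytes. The genes shown are the first named ones on each side that hold a match to the letters searched. Named genes without a match were passed over, so a match in those shown was fixed by the choice. The 250 bases before the transcription start were searched on both strands for GAGGAAGT (a PU.1 core), CAAAGTCCA (an HNF4 core) and GTTAATNAT (an HNF1 core). The sequences are those of RefSeq on GRCm38.p6, written 5′ to 3′ on the strand of the gene, with the match in capitals. Gpnmb (chr6:49036268-49036517, plus strand) holds the HNF4 letters 171 to 163 bases before the start, and Nfkbid (chr7:30423025-30423274, plus strand) holds the PU.1 letters on the opposite strand 116 to 109 bases before it. Igfbp1 (chr11:7197537-7197786, plus strand) and Pzp (chr6:128526721-128526970, minus strand) hold the HNF1 letters on the opposite strand, 59 to 51 and 202 to 194 bases before the start.
Gpnmb: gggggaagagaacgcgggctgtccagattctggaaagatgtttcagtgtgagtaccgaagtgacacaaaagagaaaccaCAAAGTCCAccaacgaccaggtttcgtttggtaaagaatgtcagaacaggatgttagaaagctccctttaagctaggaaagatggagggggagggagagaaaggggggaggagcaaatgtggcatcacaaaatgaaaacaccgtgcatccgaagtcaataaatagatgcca
Nfkbid: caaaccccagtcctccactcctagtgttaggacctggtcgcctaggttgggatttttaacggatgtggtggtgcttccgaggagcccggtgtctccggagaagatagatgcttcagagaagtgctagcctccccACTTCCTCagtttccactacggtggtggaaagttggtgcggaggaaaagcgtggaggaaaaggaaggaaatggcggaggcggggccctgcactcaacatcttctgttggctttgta
Igfbp1: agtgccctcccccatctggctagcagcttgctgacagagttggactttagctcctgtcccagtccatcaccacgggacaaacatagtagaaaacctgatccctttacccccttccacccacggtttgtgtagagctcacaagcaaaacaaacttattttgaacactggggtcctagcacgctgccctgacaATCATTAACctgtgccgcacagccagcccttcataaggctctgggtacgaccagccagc
Pzp: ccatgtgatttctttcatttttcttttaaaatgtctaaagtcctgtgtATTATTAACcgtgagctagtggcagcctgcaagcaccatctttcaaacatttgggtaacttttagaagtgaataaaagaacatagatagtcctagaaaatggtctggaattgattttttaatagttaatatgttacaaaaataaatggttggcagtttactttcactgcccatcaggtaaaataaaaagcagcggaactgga
Of 32851 promoters in the table, 2.44% hold the PU.1 letters, 0.384% the HNF4 letters and 0.737% the HNF1 letters, and 3.54% hold any of them. Among the named genes, 7 of 79 higher in macrophages and 7 of 53 lower in macrophages with a promoter in the table hold a match in any of their promoters. These are counts of genes, some with several promoters, and the shares above are of single promoters. They are therefore not on the same scale, and no enrichment was tested. The HNF4 letters lie here in the promoter of a gene that was higher in macrophages, and a match describes letters, not binding.

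Transcription factors were divided by cell type. Of 20 tested hepatocyte transcription factors, 15 were lower in macrophages and 0 higher, with a median log2 fold change of -4.56 against -0.03 for all tested genes. Of 21 tested macrophage transcription factors, 20 were higher and 0 lower, with a median of 3.36. Foxa2, a pioneer factor of liver genes, had 7.02, 1.25 and 0 CPM in macrophages and 62.9, 48.4 and 50.6 CPM in hepatocytes (log2 fold change -4.60, SE 0.757, adjusted p = 0.0115). Ppara, the nuclear receptor that drives fatty acid oxidation, had 15.8, 0.417 and 0.728 CPM in macrophages and 220.1, 201 and 96.9 CPM in hepatocytes (log2 fold change -5.68, SE 0.996, adjusted p = 0.0171). Tbx3, a developmental repressor of the liver, had 2.63, 0.417 and 0.728 CPM in macrophages and 26.0, 9.28 and 10.6 CPM in hepatocytes (log2 fold change -3.70, SE 0.531, adjusted p = 0.00527). Hnf4a, the central factor of hepatocyte identity, had 41.3, 2.92 and 0 CPM in macrophages and 314, 338 and 399 CPM in hepatocytes (log2 fold change -5.79, SE 1.47, adjusted p = 0.0415). In mice 15 and 16 these 4 factors reached at most 2.92 CPM in macrophages. Among the 5 not called were Nr1i2, Esrra, Rxra and Cebpa. Cebpa, which acts in both lineages, had 129.9, 104 and 118 CPM in macrophages and 169.6, 142 and 75.2 CPM in hepatocytes (log2 fold change -0.07, SE 0.297, adjusted p = 0.877), and the groups overlapped. Without mouse 12, 17 of 20 hepatocyte factors were lower, with a median of -6.07, and the log2 fold change of Hnf4a was -7.70.

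Spi1, which encodes PU.1, had 157, 339.7 and 379.8 CPM in macrophages and 11.1, 14.6 and 18.8 CPM in hepatocytes (log2 fold change 4.23, SE 0.278, adjusted p = 0.00117). Irf8, a partner of PU.1 in monocytes and macrophages, had 347, 318 and 306 CPM in macrophages and 35.3, 42.2 and 30.9 CPM in hepatocytes (log2 fold change 3.17, SE 0.243, adjusted p = 0.00117). Spic, the factor of iron-recycling macrophages, had 43.9, 153 and 103 CPM in macrophages and 4.90, 4.42 and 5.30 CPM in hepatocytes (log2 fold change 4.202, SE 0.448, adjusted p = 0.00233), and its lowest macrophage library was that of mouse 12. Runx1, a factor of blood cell development, had 66.7, 92.9 and 71.3 CPM in macrophages and 4.64, 7.29 and 4.34 CPM in hepatocytes (log2 fold change 3.82, SE 0.267, adjusted p = 0.00117). The sole tested macrophage factor that was not called was Cebpb, with 129, 208 and 167 CPM in macrophages and 45.6, 77.6 and 157 CPM in hepatocytes (log2 fold change 1.01, SE 0.350, adjusted p = 0.0684), where hepatocyte library 16 lay above macrophage library 12.

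Secreted and metabolic programmes of hepatocytes were lower in macrophages almost throughout. Of 34 plasma protein genes 28 were lower and 0 higher (median -5.85), and without mouse 12, 33 were lower (median -7.25). Scaling by library totals left 13 of them called lower. Apoa4, an apolipoprotein of lipid-rich particles, had 16.7, 3.33 and 1.46 CPM in macrophages and 614, 552 and 212 CPM in hepatocytes (log2 fold change -6.41, SE 0.573, adjusted p = 0.00193). Transferrin (Trf), the plasma iron carrier, had 1244, 171 and 173 CPM in macrophages and 9671, 8034 and 9444 CPM in hepatocytes (log2 fold change -4.81, SE 0.787, adjusted p = 0.00812). Igfals, which carries insulin-like growth factors in plasma, had 4.39, 0.834 and 0 CPM in macrophages and 64.4, 76.3 and 60.8 CPM in hepatocytes (log2 fold change -5.51, SE 0.738, adjusted p = 0.00640). In these 3 genes every macrophage library lay below every hepatocyte library. Igf1, counted in the same list, was the exception: it had 609, 759 and 822 CPM in macrophages and 807, 1144 and 1087 CPM in hepatocytes (log2 fold change -0.47, SE 0.271, adjusted p = 0.226), and the groups overlapped.

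Of 32 cytochrome P450 and conjugation genes, 29 were lower and 0 higher (median -4.96), and 31 were lower without mouse 12 (median -6.68). Cyp2e1, the enzyme that activates CCl4, had 24.6, 5.001 and 3.64 CPM in macrophages and 207, 166 and 228 CPM in hepatocytes (log2 fold change -4.54, SE 0.651, adjusted p = 0.00937). Ephx1, microsomal epoxide hydrolase, had 43.9, 52.5 and 49.5 CPM in macrophages and 155, 324 and 314 CPM in hepatocytes (log2 fold change -2.38, SE 0.280, adjusted p = 0.00301). Por, which passes electrons to these enzymes and is made by many cells, was not called, with 165, 162 and 210.3 CPM in macrophages and 363, 232 and 223 CPM in hepatocytes (log2 fold change -0.58, SE 0.283, adjusted p = 0.160). Of 20 bile acid genes, 18 were lower and 0 higher (median -4.82), with 15 lower and 2 higher under library totals, and 17 of 19 lower without mouse 12 (median -6.92). Cyp7a1, the rate-limiting enzyme of bile acid synthesis, had 14.9, 1.25 and 0.728 CPM in macrophages and 106, 52.2 and 20.7 CPM in hepatocytes (log2 fold change -3.91, SE 0.561, adjusted p = 0.00599). Abcb4, the phospholipid export pump of the bile canaliculus, had 60.6, 35.0 and 35.7 CPM in macrophages and 455, 589 and 349 CPM in hepatocytes (log2 fold change -3.42, SE 0.328, adjusted p = 0.00173). Without mouse 12 the log2 fold change was -5.43 for Cyp2e1 and -5.19 for Cyp7a1. The hepatocyte level of Cyp7a1 spread more widely between the mice than that of Abcb4.

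Of 26 urea cycle and amino acid genes, 21 were lower and 1 higher (median -4.76, 16 lower with library totals), and 24 were lower without mouse 12 (median -6.37). Arg1, the last enzyme of the urea cycle and also a marker of alternatively activated macrophages, had 649.7, 223 and 119 CPM in macrophages and 3013, 1969.6 and 1681 CPM in hepatocytes (log2 fold change -3.06, SE 0.438, adjusted p = 0.00525). Asl, which makes its substrate arginine, had 35.1, 16.7 and 10.2 CPM in macrophages and 143, 78.9 and 84.9 CPM in hepatocytes (log2 fold change -2.40, SE 0.294, adjusted p = 0.00331). The exception was Glul, glutamine synthetase, with 327, 310.1 and 383 CPM in macrophages and 68.6, 74.9 and 96.4 CPM in hepatocytes (log2 fold change 2.097, SE 0.225, adjusted p = 0.00233): all 3 macrophage libraries lay above all hepatocyte libraries. Of 19 fatty acid oxidation genes, 16 were lower and 0 higher, with a median of -2.74, and 18 were lower without mouse 12 (median -3.57). Acadm, the medium-chain acyl-CoA dehydrogenase, had 103, 40.0 and 48.0 CPM in macrophages and 402, 392 and 372 CPM in hepatocytes (log2 fold change -2.74, SE 0.342, adjusted p = 0.00357). Hadha, a chain of the mitochondrial trifunctional protein, had 111, 84.6 and 100.4 CPM in macrophages and 422, 521 and 350.1 CPM in hepatocytes (log2 fold change -2.12, SE 0.276, adjusted p = 0.00399). Both enzymes had counts in every macrophage library, and every macrophage library lay below every hepatocyte library. Of 26 cholesterol and fatty acid synthesis genes, 21 were lower and 0 higher (median -1.94, and -2.12 without mouse 12, again with 21 lower). Cyp51, a demethylase of cholesterol synthesis, had 18.4, 17.1 and 4.37 CPM in macrophages and 82.2, 103 and 48.2 CPM in hepatocytes (log2 fold change -2.65, SE 0.324, adjusted p = 0.00332).

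Genes of glucose metabolism were split between the cell types. Of 21 tested genes, 8 were higher and 11 lower in macrophages (9 and 7 with library totals, 8 and 11 without mouse 12). Hk2, a hexokinase of glycolytic cells, had 116, 209.6 and 159 CPM in macrophages and 5.93, 8.18 and 8.20 CPM in hepatocytes (log2 fold change 4.42, SE 0.255, adjusted p = 0.00117). Pkm, the pyruvate kinase outside liver and red blood cells, had 119, 288 and 234 CPM in macrophages and 7.47, 23.9 and 13.5 CPM in hepatocytes (log2 fold change 3.89, SE 0.254, adjusted p = 0.00117). G6pdx, the entry enzyme of the pentose phosphate pathway, had 24.6, 46.3 and 44.4 CPM in macrophages and 2.06, 2.87 and 5.30 CPM in hepatocytes (log2 fold change 3.54, SE 0.360, adjusted p = 0.00202). Against these, Khk, which starts fructose breakdown, had 28.1, 13.3 and 19.6 CPM in macrophages and 97.4, 104.99 and 93.1 CPM in hepatocytes (log2 fold change -2.34, SE 0.312, adjusted p = 0.00429). G6pc, which releases free glucose, had 78.1, 3.33 and 1.46 CPM in macrophages and 961, 1153 and 441 CPM in hepatocytes (log2 fold change -6.55, SE 1.36, adjusted p = 0.0257), and its log2 fold change was -8.38 without mouse 12. Pklr, the pyruvate kinase of the liver, held no count in macrophages and did not pass the filter on low counts. Against a floor of 3 counts over the 3 macrophage libraries, it was at least 10.002-fold lower.

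**Figure D3:**
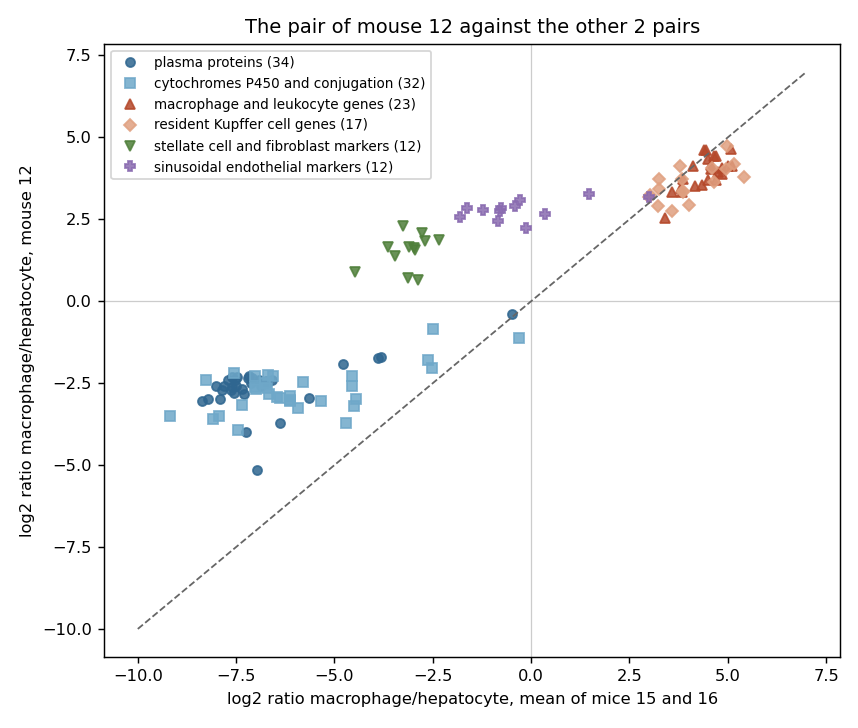
Log2 ratio of macrophage over hepatocyte in mouse 12 against the mean of the same ratio in mice 15 and 16, for the tested genes of 6 lists, with the dashed line at equality. All macrophage and Kupffer cell genes lie above 0 in mouse 12, all 34 plasma protein genes and 31 of 32 cytochrome P450 and conjugation genes lie above the line and below 0, and all 12 stellate cell markers are above 0 in mouse 12 and below 0 in the other 2 mice.

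Genes of macrophage identity were higher in every case tested: 23 of 23 macrophage and leukocyte genes (median 4.48), or 21 of 21 without the sort markers Adgre1 and Ptprc (median 4.44), and 17 of 17 resident Kupffer cell genes (median 3.84). Clec4f, a lectin found on Kupffer cells, had 626, 1004 and 745 CPM in macrophages and 37.4, 27.6 and 27.0 CPM in hepatocytes (log2 fold change 4.68, SE 0.353, adjusted p = 0.00117). Timd4, a receptor for dying cells on resident macrophages, had 129.9, 218 and 153 CPM in macrophages and 6.70, 6.19 and 3.38 CPM in hepatocytes (log2 fold change 4.91, SE 0.338, adjusted p = 0.00117). Marco, a scavenger receptor, had 984, 1853 and 1441 CPM in macrophages and 36.3, 41.6 and 64.1 CPM in hepatocytes (log2 fold change 4.91, SE 0.370, adjusted p = 0.00117). Csf1r, the receptor of the macrophage growth factor, had 595, 939 and 998 CPM in macrophages and 50.0, 51.7 and 43.4 CPM in hepatocytes (log2 fold change 4.09, SE 0.326, adjusted p = 0.00122). Each of these was lowest in the macrophage library of mouse 12. Both sort markers showed the gate: Adgre1 had 336, 491 and 463 CPM in macrophages and 12.9, 10.8 and 16.9 CPM in hepatocytes, and Ptprc had 342, 423 and 346 CPM in macrophages and 13.4, 21.2 and 14.9 CPM in hepatocytes.

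Of 17 monocyte genes, 14 were higher and 2 lower (median 4.13). Ccr2, the receptor by which monocytes leave the bone marrow, had 269, 145 and 116 CPM in macrophages and 9.02, 4.1996 and 5.79 CPM in hepatocytes (log2 fold change 4.79, SE 0.286, adjusted p = 0.00117). Ly6c2, of inflammatory monocytes, had 50.9, 37.9 and 16.01 CPM in macrophages and 1.80, 0.442 and 0.482 CPM in hepatocytes (log2 fold change 5.30, SE 0.481, adjusted p = 0.00156). Chil3, a chitinase-like protein of monocytes and alternatively activated macrophages, had 150.1, 97.5 and 108 CPM in macrophages and 5.67, 2.87 and 3.38 CPM in hepatocytes (log2 fold change 4.91, SE 0.267, adjusted p = 0.00117). Unlike the 4 genes above, Ccr2, Ly6c2 and Chil3 were highest in the macrophage library of mouse 12. The 2 lower genes were Fn1 and Ifitm3, and fibronectin (Fn1) had 264, 323 and 194 CPM in macrophages and 1262, 1005 and 1317 CPM in hepatocytes (log2 fold change -2.22, SE 0.341, adjusted p = 0.00658). With these 2 included, the monocyte list summed to 2456, 2753 and 2393 CPM in macrophages and 2604, 2988 and 2714 CPM in hepatocytes, while its other called genes were higher in macrophages.

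Lipid-associated macrophage genes were higher for 13 of 17 and lower for 1 (median 2.62). The lower gene was Apoe (log2 fold change -2.13, adjusted p = 0.0294). Lgals3, galectin 3, had 691, 1377 and 1753 CPM in macrophages and 36.9, 59.9 and 111 CPM in hepatocytes (log2 fold change 4.24, SE 0.311, adjusted p = 0.00117). Mmp12, macrophage elastase, had 209.8, 875 and 809.9 CPM in macrophages and 21.4, 41.6 and 51.1 CPM in hepatocytes (log2 fold change 3.90, SE 0.331, adjusted p = 0.00138). Spp1, osteopontin, whose promoter drives the Cre that these mice lack, had 205, 182 and 341 CPM in macrophages and 24.5, 13.04 and 68.5 CPM in hepatocytes (log2 fold change 3.05, SE 0.356, adjusted p = 0.00291). It is made by biliary cells too, and the part of such cells in its level was not tested. The other 11 biliary markers of the list reached at most 22.8 CPM in any macrophage library.

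Of 23 scavenging and efferocytosis genes, 15 were higher and 3 lower (median 2.83). Msr1, a scavenger receptor for modified lipoproteins, had 385, 715 and 630.1 CPM in macrophages and 18.8, 34.9 and 39.5 CPM in hepatocytes (log2 fold change 4.23, SE 0.264, adjusted p = 0.00117). Mertk, which engulfs apoptotic cells, had 295, 487 and 563 CPM in macrophages and 29.1, 50.6 and 37.6 CPM in hepatocytes (log2 fold change 3.50, SE 0.270, adjusted p = 0.00117). Cd300a, an inhibitory receptor for phosphatidylserine, had 74.6, 132 and 122 CPM in macrophages and 2.32, 3.54 and 5.79 CPM in hepatocytes (log2 fold change 4.87, SE 0.305, adjusted p = 0.00117). The lower genes were the hepatocyte lectins Asgr1 and Asgr2, which form the asialoglycoprotein receptor, and Scarb1, the receptor for high-density lipoprotein. Asgr1 had 70.2, 5.001 and 8.00 CPM in macrophages and 552, 756 and 518 CPM in hepatocytes (log2 fold change -5.37, SE 1.08, adjusted p = 0.0236). Gas6 and Pros1, the bridging ligands of Mertk and Axl, were not called, and Pros1 had 78.1, 36.3 and 58.2 CPM in macrophages and 99.7, 119 and 76.2 CPM in hepatocytes (log2 fold change -0.81, SE 0.343, adjusted p = 0.113).

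Lysosome genes were higher for 18 of 24 and lower for 0, with a median of 1.88. Hexa, a hexosaminidase, had 166, 283 and 297 CPM in macrophages and 22.9, 23.0 and 37.6 CPM in hepatocytes (log2 fold change 3.15, SE 0.273, adjusted p = 0.00141). Atp6v1b2, a subunit of the proton pump, had 309, 632 and 709 CPM in macrophages and 55.7, 70.3 and 98.8 CPM in hepatocytes (log2 fold change 2.83, SE 0.269, adjusted p = 0.00172). Ctsd, cathepsin D, had 1303, 2192 and 2495 CPM in macrophages and 195, 236 and 305 CPM in hepatocytes (log2 fold change 3.00, SE 0.316, adjusted p = 0.00225). Cathepsin L (Ctsl) did not follow, with 483, 496 and 530.5 CPM in macrophages and 547, 412 and 487 CPM in hepatocytes (log2 fold change 0.07, SE 0.252, adjusted p = 0.846), and its groups overlapped.

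Of 19 antigen presentation genes, 14 were higher and 0 lower (median 3.02). H2-Ab1, a class II chain, had 699.7, 478 and 701 CPM in macrophages and 49.2, 22.5 and 48.7 CPM in hepatocytes (log2 fold change 4.02, SE 0.282, adjusted p = 0.00117). Cd74, the invariant chain, had 736, 646 and 766 CPM in macrophages and 34.5, 24.3 and 58.8 CPM in hepatocytes (log2 fold change 4.28, SE 0.333, adjusted p = 0.00117). H2-K1, a class I heavy chain, had 1036, 1044 and 683 CPM in macrophages and 899, 721 and 1373 CPM in hepatocytes (log2 fold change -0.08, SE 0.398, adjusted p = 0.889), with overlapping groups. Of 22 innate sensing genes, 21 were higher and 0 lower (median 3.24). Nlrp3, the inflammasome sensor, had 164, 356 and 338 CPM in macrophages and 8.76, 13.04 and 22.2 CPM in hepatocytes (log2 fold change 4.31, SE 0.292, adjusted p = 0.00117). Tlr2, the receptor for bacterial lipoproteins, had 61.5, 93.4 and 72.8 CPM in macrophages and 3.87, 5.08 and 6.27 CPM in hepatocytes (log2 fold change 3.91, SE 0.288, adjusted p = 0.00117). Clec7a, which binds fungal beta-glucan, had 401, 946 and 895 CPM in macrophages and 27.1, 53.0 and 47.3 CPM in hepatocytes (log2 fold change 4.10, SE 0.270, adjusted p = 0.00117). The gene not called was Tlr3, the sensor of double-stranded RNA, with 19.3, 8.34 and 14.6 CPM in macrophages and 5.93, 5.08 and 7.23 CPM in hepatocytes (log2 fold change 1.14, SE 0.411, adjusted p = 0.0762).

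Of 18 interferon-stimulated genes, 10 were higher and 0 lower (median 1.37). Ifi44 had 233, 458 and 186 CPM in macrophages and 22.4, 22.3 and 12.1 CPM in hepatocytes (log2 fold change 3.89, SE 0.303, adjusted p = 0.00117). Rsad2, the antiviral protein viperin, had 65.8, 230.5 and 122 CPM in macrophages and 6.70, 19.5 and 14.9 CPM in hepatocytes (log2 fold change 3.30, SE 0.249, adjusted p = 0.00117), and both were highest in the macrophages of mouse 15. Ifit1, Isg15 and Stat2 were among the 8 not called, and Stat2 had 60.6, 54.6 and 32.0 CPM in macrophages and 72.4, 53.9 and 57.4 CPM in hepatocytes (log2 fold change -0.35, SE 0.262, adjusted p = 0.342).

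Chemokines and their receptors were on the macrophage side. Of 19 chemokine ligand genes, 15 were higher and 1 lower (median 4.09), and all 8 tested receptor genes were higher (median 4.60). Ccl2, which draws monocytes through Ccr2, had 229, 481 and 461 CPM in macrophages and 10.8, 33.8 and 27.5 CPM in hepatocytes (log2 fold change 4.09, SE 0.265, adjusted p = 0.00117). Cxcl2, which draws neutrophils, had 2439, 5106 and 6272 CPM in macrophages and 151, 189.6 and 219 CPM in hepatocytes (log2 fold change 4.54, SE 0.416, adjusted p = 0.00160). Ccl24, an eotaxin, had 68.5, 112 and 103 CPM in macrophages and 3.61, 3.32 and 4.82 CPM in hepatocytes (log2 fold change 4.58, SE 0.308, adjusted p = 0.00117). The exception was Cxcl10, an interferon-induced ligand of Cxcr3, with 43.9, 35.0 and 21.1 CPM in macrophages and 107, 101 and 48.2 CPM in hepatocytes (log2 fold change -1.35, SE 0.227, adjusted p = 0.00863), where every macrophage library lay below every hepatocyte library. Cxcl1, the other neutrophil ligand, had 475, 1398 and 993 CPM in macrophages and 438, 502 and 273 CPM in hepatocytes (log2 fold change 1.16, SE 0.420, adjusted p = 0.0764): both cell types held it and the groups overlapped. Cxcl12 was called lower without mouse 12 (-4.95, adjusted p = 3.91e-06) and not with it (log2 fold change -3.56, SE 1.06, adjusted p = 0.0608). Over 16 alternative settings it was called in 5.

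Of 14 inflammatory cytokine ligands, 11 were higher and 1 lower (median 3.88). Tumour necrosis factor (Tnf) had 252, 666 and 589 CPM in macrophages and 9.28, 18.1 and 33.3 CPM in hepatocytes (log2 fold change 4.70, SE 0.329, adjusted p = 0.00117). Il1b, interleukin 1 beta, had 1213, 2143 and 1268 CPM in macrophages and 55.7, 68.3 and 55.5 CPM in hepatocytes (log2 fold change 4.64, SE 0.328, adjusted p = 0.00117). Il6, which primes hepatocytes for division, had 37.8, 37.9 and 28.4 CPM in macrophages and 0.773, 1.33 and 1.93 CPM in hepatocytes (log2 fold change 4.73, SE 0.456, adjusted p = 0.00173). Il10, an anti-inflammatory cytokine, had 61.5, 127 and 91.7 CPM in macrophages and 2.06, 3.54 and 2.89 CPM in hepatocytes (log2 fold change 5.01, SE 0.278, adjusted p = 0.00117). The hepatocyte libraries reached at most 68.3 CPM for these 4. The lower gene was the alarmin Il33, with 2.63, 2.50 and 0 CPM in macrophages and 6.70, 20.8 and 20.7 CPM in hepatocytes (log2 fold change -3.15, SE 0.870, adjusted p = 0.0385).

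Of 22 cytokine receptors, 14 were higher and 2 lower (median 1.39). Il10rb, a chain of the interleukin 10 receptor, had 134, 178 and 196 CPM in macrophages and 12.9, 9.95 and 12.1 CPM in hepatocytes (log2 fold change 3.85, SE 0.279, adjusted p = 0.00117). Ifngr1, a chain of the interferon gamma receptor, had 153, 168 and 162 CPM in macrophages and 46.6, 69.6 and 73.3 CPM in hepatocytes (log2 fold change 1.37, SE 0.232, adjusted p = 0.00868). The lower genes were Il1rap, the accessory chain for interleukin 1 and 33, with 11.4, 1.67 and 2.18 CPM in macrophages and 50.0, 27.8 and 37.1 CPM in hepatocytes (log2 fold change -3.22, SE 0.504, adjusted p = 0.00692), and Lifr, the receptor of leukaemia inhibitory factor. Lifr had 122, 24.2 and 27.7 CPM in macrophages and 257, 271 and 169.7 CPM in hepatocytes (log2 fold change -2.39, SE 0.542, adjusted p = 0.0276). Il6ra and Il6st, both chains of the interleukin 6 receptor, were not called, and Il6st had 249, 104.6 and 87.3 CPM in macrophages and 125, 226 and 114 CPM in hepatocytes (log2 fold change -0.18, SE 0.453, adjusted p = 0.790) with overlapping groups.

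Most called growth factor receptors were lower in macrophages. Of 26 growth factor receptor genes, 13 were lower and 2 higher (median -1.58, with 9 lower and 4 higher under library totals and 16 lower and 2 higher without mouse 12). Met, the receptor of hepatocyte growth factor, had 20.2, 18.3 and 13.8 CPM in macrophages and 99.0, 77.8 and 54.0 CPM in hepatocytes (log2 fold change -2.11, SE 0.241, adjusted p = 0.00270). Egfr, the epidermal growth factor receptor, had 47.4, 5.001 and 4.37 CPM in macrophages and 426, 425 and 187 CPM in hepatocytes (log2 fold change -4.89, SE 0.799, adjusted p = 0.0143). Erbb3, its partner, had 5.27, 3.33 and 4.37 CPM in macrophages and 25.5, 24.5 and 23.6 CPM in hepatocytes (log2 fold change -2.53, SE 0.363, adjusted p = 0.00527). In each of these the groups did not overlap. The 2 higher genes were Fgfr1 and Fzd7, and Fgfr1 had 18.4, 20.4 and 8.00 CPM in macrophages and 4.64, 3.32 and 1.93 CPM in hepatocytes (log2 fold change 2.23, SE 0.423, adjusted p = 0.0121). Of 21 growth factor ligand genes, 2 were higher and 5 lower (median -0.15, which moved to 0.45 under library totals). These were 9.52% and 23.8% of the list, against 19.4% and 19.3% of all tested genes. Hbegf, a ligand of Egfr, had 155, 313 and 283 CPM in macrophages and 30.2, 42.4 and 45.3 CPM in hepatocytes (log2 fold change 2.63, SE 0.240, adjusted p = 0.00157). Pdgfb, a mitogen of stellate cells, had 23.7, 18.3 and 21.1 CPM in macrophages and 1.80, 0.884 and 1.45 CPM in hepatocytes (log2 fold change 3.93, SE 0.431, adjusted p = 0.00244). Inhbc, an activin subunit of the liver, had 4.39, 1.67 and 0 CPM in macrophages and 40.5, 66.3 and 66.1 CPM in hepatocytes (log2 fold change -4.92, SE 0.789, adjusted p = 0.0109). Hgf, the ligand of Met and a product of stellate and endothelial cells, was not called, with 32.5, 12.5 and 22.6 CPM in macrophages and 8.50, 32.5 and 16.4 CPM in hepatocytes (log2 fold change 0.31, SE 0.716, adjusted p = 0.767).

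**Figure D4:**
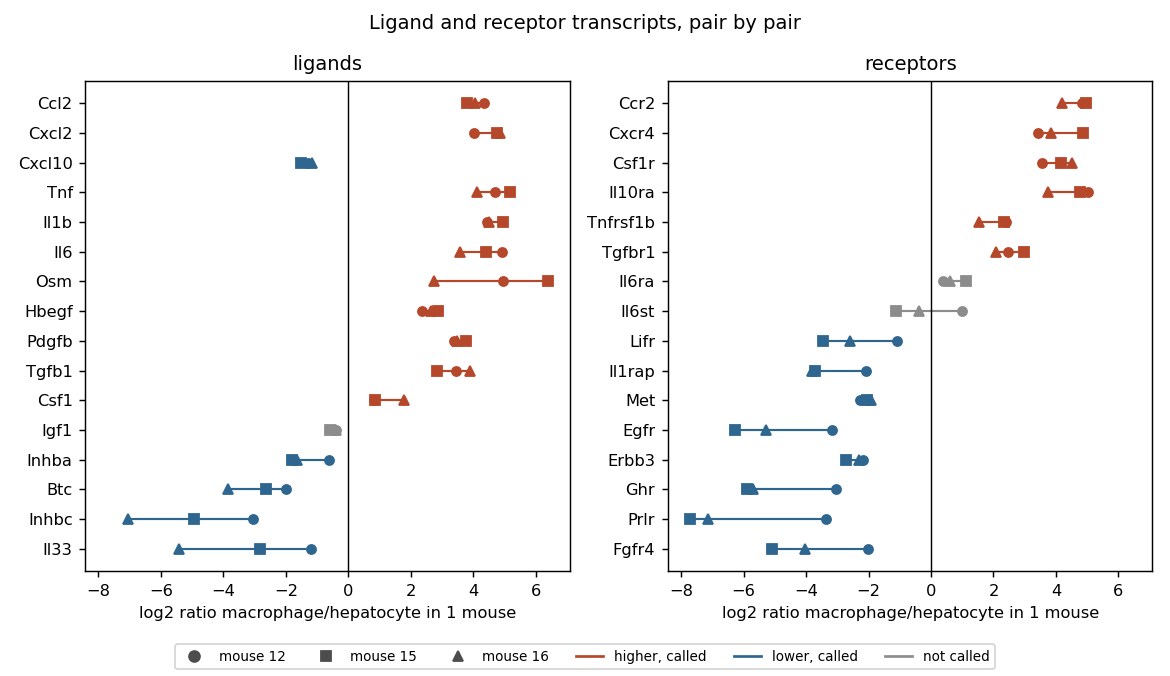
Log2 ratio of macrophage over hepatocyte in each of the 3 mice for 16 ligand and 16 receptor genes, with a pseudocount of 0.5 CPM. The genes were chosen after their values were seen. Ccl2, Cxcl2, Tnf, Il1b, Il6, Ccr2 and Cxcr4 lie right of 0 in all 3 mice, and Met, Egfr, Erbb3, Ghr, Prlr and Fgfr4 lie left of 0 in all 3 mice.

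Complement was split between the cells. Of 29 genes, 9 were higher and 15 lower in macrophages (10 and 10 with library totals, 9 and 17 without mouse 12). The 3 chains of C1q were all on the macrophage side, and C1qa had 774, 1277 and 987 CPM in macrophages and 46.6, 43.3 and 46.8 CPM in hepatocytes (log2 fold change 4.44, SE 0.326, adjusted p = 0.00117). Properdin (Cfp), which stabilises the alternative pathway convertase, had 249, 488 and 437 CPM in macrophages and 14.7, 14.6 and 22.2 CPM in hepatocytes (log2 fold change 4.48, SE 0.318, adjusted p = 0.00117). C5ar1, the receptor of the C5a fragment, had 57.1, 55.4 and 67.7 CPM in macrophages and 2.06, 1.55 and 3.86 CPM in hepatocytes (log2 fold change 4.67, SE 0.350, adjusted p = 0.00117). C3, the central component, lay on the hepatocyte side, with 675, 120.4 and 58.9 CPM in macrophages and 4762, 5291 and 4043 CPM in hepatocytes (log2 fold change -4.85, SE 0.858, adjusted p = 0.0126), and its log2 fold change was -5.79 without mouse 12. Factor B (Cfb) had 6.15, 1.67 and 0.728 CPM in macrophages and 189.7, 316 and 7.71 CPM in hepatocytes (log2 fold change -5.94, SE 0.763, adjusted p = 0.00644), and its hepatocyte level in mouse 16 was far below that in mice 12 and 15. C6, a component of the terminal complex, was higher in macrophages, with 117, 103 and 106 CPM in macrophages and 10.3, 10.6 and 10.6 CPM in hepatocytes (log2 fold change 3.36, SE 0.238, adjusted p = 0.00117), whereas C8a, C8b, C8g and C9 were lower.

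Of 28 coagulation and fibrinolysis genes, 4 were higher and 18 lower (median -5.08), and 20 were lower without mouse 12 (median -6.48). Plau, the urokinase activator of plasminogen, had 62.3, 116 and 116 CPM in macrophages and 3.87, 4.64 and 6.27 CPM in hepatocytes (log2 fold change 4.29, SE 0.282, adjusted p = 0.00117). Its receptor Plaur had 39.5, 70.0 and 69.1 CPM in macrophages and 2.58, 4.42 and 3.86 CPM in hepatocytes (log2 fold change 4.01, SE 0.287, adjusted p = 0.00117). F13a1, the catalytic chain of clotting factor XIII, had 49.2, 67.1 and 66.2 CPM in macrophages and 2.58, 1.11 and 0.482 CPM in hepatocytes (log2 fold change 5.35, SE 0.530, adjusted p = 0.00189), while F13b, its carrier chain, was lower with 36.0, 2.08 and 0 CPM in macrophages and 244, 283 and 138 CPM in hepatocytes (log2 fold change -5.30, SE 1.28, adjusted p = 0.0366). Plasminogen (Plg), the substrate of urokinase, had 17.6, 0 and 0.728 CPM in macrophages and 159, 207 and 93.1 CPM in hepatocytes (log2 fold change -5.49, SE 1.29, adjusted p = 0.0346). Fgb, a chain of fibrinogen, had 859, 56.3 and 16.7 CPM in macrophages and 9003, 9436 and 9271 CPM in hepatocytes (log2 fold change -6.81, SE 1.61, adjusted p = 0.0348), and without mouse 12 its log2 fold change was -8.19.

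Of 25 acute phase genes, 3 were higher and 15 lower (median -5.24), with 21 lower without mouse 12 and 7 with library totals. The higher genes were Cd14, Il1rn and Socs3, and Il1rn, the interleukin 1 receptor antagonist, had 159, 693 and 584 CPM in macrophages and 31.7, 67.4 and 59.8 CPM in hepatocytes (log2 fold change 3.00, SE 0.317, adjusted p = 0.00225). Lbp, which hands lipopolysaccharide to Cd14, was lower with 38.6, 7.502 and 10.9 CPM in macrophages and 179.6, 151 and 92.1 CPM in hepatocytes (log2 fold change -3.17, SE 0.468, adjusted p = 0.00718), while Cd14 itself had 262, 723 and 520.3 CPM in macrophages and 19.6, 26.7 and 27.0 CPM in hepatocytes (log2 fold change 4.26, SE 0.318, adjusted p = 0.00117). Socs3, the feedback inhibitor of Il6 signalling, had 289, 185 and 160.1 CPM in macrophages and 68.6, 101 and 68.5 CPM in hepatocytes (log2 fold change 1.39, SE 0.305, adjusted p = 0.0190). Saa1, a major acute phase protein, missed the threshold, with 286, 5.42 and 5.82 CPM in macrophages and 1488, 553 and 2260.5 CPM in hepatocytes (log2 fold change -5.96, SE 1.65, adjusted p = 0.0507), and was called without mouse 12 (-7.60, adjusted p = 3.72e-06). Over 16 alternative settings it was called in 8.

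Of 24 iron genes, 6 were higher and 11 lower (median -1.11, 5 lower with library totals). Hmox1, which opens haem, had 171, 230.5 and 289.6 CPM in macrophages and 16.2, 19.2 and 15.4 CPM in hepatocytes (log2 fold change 3.72, SE 0.282, adjusted p = 0.00117). Slc40a1, the iron exporter ferroportin, had 719.9, 964 and 943 CPM in macrophages and 95.9, 98.1 and 104 CPM in hepatocytes (log2 fold change 3.13, SE 0.270, adjusted p = 0.00140). Hamp, the hormone hepcidin that removes ferroportin from the cell surface, had 230.0, 8.75 and 7.28 CPM in macrophages and 1413, 1812 and 2310.1 CPM in hepatocytes (log2 fold change -6.45, SE 1.67, adjusted p = 0.0435). The exporter was higher in macrophages and the hormone lower, with a log2 fold change of -7.98 without mouse 12. Of 18 matrix protease and inhibitor genes, 12 were higher and 1 lower (median 2.31). Mmp13, a collagenase, had 27.2, 154 and 107 CPM in macrophages and 1.29, 3.54 and 1.93 CPM in hepatocytes (log2 fold change 5.24, SE 0.365, adjusted p = 0.00117). Mmp9, gelatinase B, held no count in the hepatocytes and had 9.66, 7.08 and 12.4 CPM in macrophages, at least 32.0-fold higher against a floor of 3 counts over the 3 hepatocyte libraries. The lower gene was Hpn, the hepatocyte protease hepsin.

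Of 19 glutathione and NRF2 genes, 4 were higher and 8 lower (5 lower with library totals). Gclc, the catalytic subunit of the first step of glutathione synthesis, had 121, 105.4 and 95.3 CPM in macrophages and 500.2, 490.0 and 537 CPM in hepatocytes (log2 fold change -2.25, SE 0.245, adjusted p = 0.00241). Slc7a11, which imports cystine for it, had 9.66, 20.004 and 12.4 CPM in macrophages and 0.773, 1.33 and 2.89 CPM in hepatocytes (log2 fold change 3.18, SE 0.582, adjusted p = 0.0110). Its partner chain Slc3a2 was higher too. Of 16 immediate early genes, 7 were higher and 1 lower. Klf2, a factor of quiescent endothelium and macrophages, had 684, 629.7 and 578 CPM in macrophages and 50.8, 74.3 and 60.8 CPM in hepatocytes (log2 fold change 3.36, SE 0.279, adjusted p = 0.00134). Jun was the lower one, with 929, 586 and 428 CPM in macrophages and 1686, 1522 and 1724 CPM in hepatocytes (log2 fold change -1.41, SE 0.355, adjusted p = 0.0276), and Fos and Egr1 were not called. Of 13 mitochondrially encoded transcripts, 8 were lower and 0 higher (median -1.74, 5 lower with library totals), and their sum was 53996, 66156 and 36697 CPM in macrophages against 175877, 154404 and 182101 CPM in hepatocytes.

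Cell division genes were present in both cell types. Of 25 tested mitosis genes, 11 were lower in macrophages and 1 higher (median -0.81), which became 5 lower and 3 higher under library totals (median -0.20). Their sum was 1860, 1646 and 1820 CPM in macrophages, against 2998, 3453 and 2774 CPM in hepatocytes. Cdc20, which activates the anaphase-promoting complex, had 18.4, 10.8 and 12.4 CPM in macrophages and 168, 238 and 116 CPM in hepatocytes (log2 fold change -3.63, SE 0.356, adjusted p = 0.00182). Aurka, a spindle kinase, had 28.1, 22.5 and 24.7 CPM in macrophages and 74.7, 72.9 and 75.2 CPM in hepatocytes (log2 fold change -1.57, SE 0.230, adjusted p = 0.00568). Ccnb1, the mitotic cyclin, had 19.3, 22.1 and 18.2 CPM in macrophages and 53.1, 67.2 and 93.1 CPM in hepatocytes (log2 fold change -1.80, SE 0.286, adjusted p = 0.00717). The higher gene was Kif23, a motor of cytokinesis, with 53.6, 108 and 71.3 CPM in macrophages and 25.5, 31.8 and 23.1 CPM in hepatocytes (log2 fold change 1.49, SE 0.256, adjusted p = 0.00909). Mki67 and Top2a, common marks of cycling cells, were not called: Mki67 had 213, 208 and 234 CPM in macrophages and 365, 395 and 221 CPM in hepatocytes (log2 fold change -0.54, SE 0.290, adjusted p = 0.194), and hepatocyte library 16 lay among the macrophage libraries.

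Few DNA replication genes were called: 2 of 26 were higher, 2 lower and 22 not called, with a median of 0.03, which shifted with all genes to 0.63 under library totals. Mcm2, a subunit of the replicative helicase, had 42.1, 46.3 and 40.7 CPM in macrophages and 53.1, 43.1 and 35.7 CPM in hepatocytes (log2 fold change -0.01, SE 0.243, adjusted p = 0.973). Tyms, which makes thymidylate, was lower with 26.3, 11.7 and 18.9 CPM in macrophages and 39.4, 32.9 and 67.5 CPM in hepatocytes (log2 fold change -1.30, SE 0.335, adjusted p = 0.0296), and Mcm3 was higher with 122, 180.5 and 210.3 CPM in macrophages and 86.1, 63.0 and 91.6 CPM in hepatocytes (log2 fold change 1.08, SE 0.277, adjusted p = 0.0296). Of 21 cyclins, kinases and inhibitors of the entry into S phase, 2 were higher and 4 lower (median -0.37, and 0.23 under library totals). Ccnd1, cyclin D1, had 109, 75.8 and 69.9 CPM in macrophages and 415, 304 and 368 CPM in hepatocytes (log2 fold change -2.11, SE 0.239, adjusted p = 0.00268). Ccne1, cyclin E1, had 14.9, 9.59 and 8.00 CPM in macrophages and 29.4, 20.998 and 19.3 CPM in hepatocytes (log2 fold change -1.12, SE 0.306, adjusted p = 0.0354). The higher genes were Rb1, the retinoblastoma protein, and Mdm2, and Rb1 had 39.5, 36.3 and 66.2 CPM in macrophages and 14.9, 7.96 and 12.1 CPM in hepatocytes (log2 fold change 2.01, SE 0.323, adjusted p = 0.00746).

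**Figure D5:**
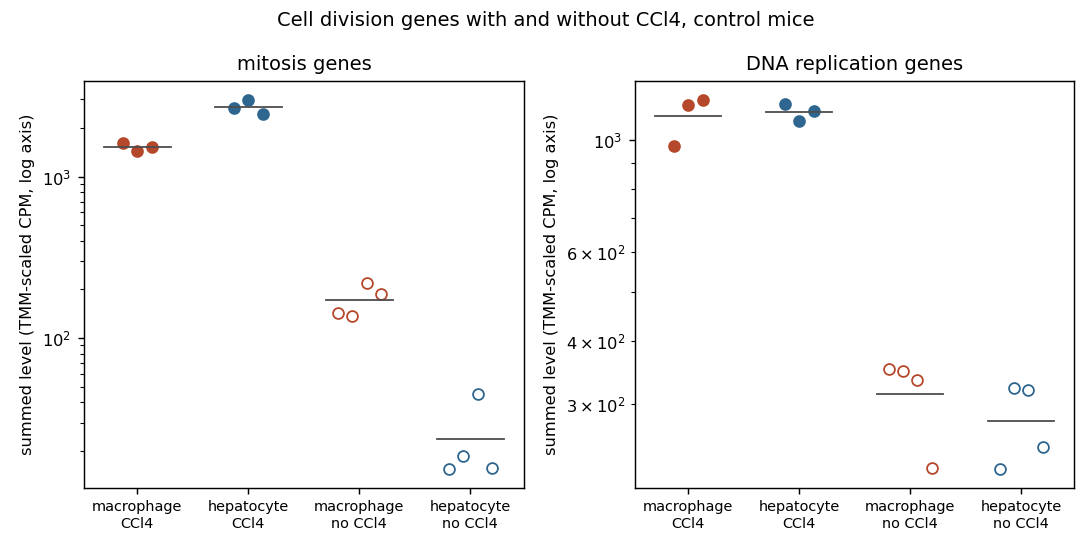
Summed level of the mitosis genes (left) and the DNA replication genes (right) in each library of control mice with CCl4 (filled) and without (open), in CPM scaled over 14 libraries on log axes, with the mean of each group as a line. After CCl4 mitosis genes summed to 1431 to 1616 CPM in macrophages and 2429 to 2999 CPM in hepatocytes, and without CCl4 to 137 to 219 CPM in macrophages and 15.4 to 45.2 CPM in hepatocytes.

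Yap1 and Wwtr1, the co-activators encoded by Yap and Taz, carry the floxed alleles in all of these mice. Yap1 was lower in macrophages, with 19.3, 7.08 and 1.46 CPM in macrophages and 68.0, 60.3 and 72.8 CPM in hepatocytes (log2 fold change -3.10, SE 0.683, adjusted p = 0.0274), and the groups did not overlap. Wwtr1 had 32.5, 5.001 and 1.46 CPM in macrophages and 31.7, 38.5 and 33.8 CPM in hepatocytes (log2 fold change -2.06, SE 0.932, adjusted p = 0.158): macrophage library 12 lay within the hepatocyte values and the other 2 below them. Of 17 tested genes of the Hippo pathway and its targets, 3 were higher and 2 lower (median 0.19, which moved to 0.79 under library totals and to -0.06 without mouse 12, where 3 were higher and 6 lower). With all 3 pairs these shares, 17.6% higher and 11.8% lower, were below those of all tested genes (19.4% and 19.3%). Stk4, the Hippo kinase MST1, had 112, 158 and 132 CPM in macrophages and 35.6, 39.8 and 48.7 CPM in hepatocytes (log2 fold change 1.70, SE 0.231, adjusted p = 0.00450). Mob1a, of the same pathway, had 168, 193 and 284 CPM in macrophages and 56.7, 42.4 and 42.9 CPM in hepatocytes (log2 fold change 2.15, SE 0.29999, adjusted p = 0.00484). Axl, a receptor of dying cells that is also a YAP target, was higher, and Amotl2, an angiomotin, was lower with 14.9, 4.58 and 1.46 CPM in macrophages and 35.3, 39.8 and 33.3 CPM in hepatocytes (log2 fold change -2.65, SE 0.620, adjusted p = 0.0257). Ccn1 and Ccn2, 2 widely used target genes, were not called, and Ccn2 had 43.9, 2.50 and 1.46 CPM in macrophages and 9.54, 13.9 and 26.5 CPM in hepatocytes (log2 fold change -1.07, SE 1.44, adjusted p = 0.604).

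Markers of other cells moved with single libraries. Stellate cell and fibroblast markers summed to 2108, 173 and 193 CPM in macrophages and 674, 1441 and 1764 CPM in hepatocytes. None of the 12 was called in edgeR with all 3 pairs, where 0 of them had an unadjusted p under 0.05, and 13 of 13 were lower without mouse 12 (median -3.46). Decorin (Dcn), a matrix protein of these cells, had 534, 53.8 and 63.3 CPM in macrophages and 204, 655 and 632 CPM in hepatocytes. Sinusoidal endothelial markers summed to 1678, 506 and 432 CPM in macrophages and 220, 474 and 347 CPM in hepatocytes, and 2 of 12 were higher, Cdh5 and Stab2. That share, 16.7%, was below the 19.4% of all tested genes. Cdh5 is also made by Kupffer cells and had 169, 166 and 172 CPM in macrophages and 18.04, 28.1 and 15.4 CPM in hepatocytes (log2 fold change 3.07, SE 0.280, adjusted p = 0.00157).

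Of 6 neutrophil markers, 5 were higher and 1, Lcn2, was lower, and S100a8 had 109.7, 80.4 and 78.6 CPM in macrophages and 2.06, 1.99 and 4.82 CPM in hepatocytes (log2 fold change 5.01, SE 0.420, adjusted p = 0.00137). Of 12 markers of T, B and natural killer cells, 3 passed the filter on low counts, and all 3 were higher. The 12 summed to 148, 84.2 and 111 CPM in macrophages and 4.90, 1.77 and 2.89 CPM in hepatocytes, where they held 19, 8 and 6 counts. Genes so low in hepatocytes pass the filter through the macrophage libraries, so their direction was fixed in advance and is no result. The defining T cell genes Cd3e, Cd3d and Cd3g reached at most 9.66 CPM in any macrophage library. Of 6 dendritic cell markers, 5 were higher and 0 lower, and all 5 tested erythroid and platelet markers were higher. The 9 erythroid and platelet markers of the list held 44, 96 and 44 counts in the hepatocyte libraries, so the same limit of the filter bears on them. Of 4 biliary markers, 1 (Spp1) was higher and 2 (Sox9 and Prom1) lower, and Sox9 had 22.8, 7.08 and 2.18 CPM in macrophages and 74.7, 286 and 161 CPM in hepatocytes (log2 fold change -4.21, SE 1.04, adjusted p = 0.0388). Pancreatic acinar markers were lower for 6 of 7, summed to 37.8, 197 and 45.8 CPM in macrophages against 113, 1385 and 354 CPM in hepatocytes. These sums overlapped and were highest for mouse 15 in both cell types. The part of any of these cells in the differences above was not tested.

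The difference between the cell types was then compared with that in uninjured control mice, in a test of the interaction of cell type and CCl4 with the mouse as a block. Of 11563 genes tested, 103 (0.891%) passed, 10 up (0.0865%) and 93 down (0.804%), where up means that macrophage over hepatocyte was higher after CCl4. The median over all genes was -0.28 on the log2 scale. Libraries of the second series of file numbers made up 3 of 3 macrophage and 1 of 3 hepatocyte libraries after CCl4, against 3 of 4 macrophage and 2 of 4 hepatocyte libraries without it, and the part of the series was not tested. The calls depended on single mice. Without mouse 8, 9, 15 or 16 the count was 0, without mouse 6 it was 4, without mouse 7 it was 189 and without mouse 12 it was 906. In the 4 fits with a count of 0, 1207 to 1529 genes had an unadjusted p under 0.05, and over all 14 libraries DESeq2 called 661 genes and limma voom 173.

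The genes that moved up include Slc1a2, Glul and Oat, which the hepatocytes next to the central vein use to take up glutamate, make glutamine and break down ornithine. Glul had 285, 269.6 and 319 CPM in macrophages after CCl4 against 600.4, 686, 970.0 and 838 CPM without it, and 60.9, 65.1 and 84.5 CPM in hepatocytes after CCl4 against 1653, 1476, 1949 and 1152 CPM without it (change of the log2 difference 3.07, SE 0.424, adjusted p = 0.0195). In both cell types every library after CCl4 lay below every library without it. Slc1a2 had 3.82, 14.1 and 16.4 CPM in macrophages after CCl4 against 63.2, 78.4, 76.4 and 85.7 CPM without it, and 0.458, 2.50 and 0.422 CPM in hepatocytes after CCl4 against 153, 192, 225 and 126 CPM without it (change of the log2 difference 4.33, SE 0.545, adjusted p = 0.0184). Oat had 68.7, 64.5 and 64.4 CPM in macrophages after CCl4 against 207, 267, 301 and 212 CPM without it, and 104, 68.5 and 85.7 CPM in hepatocytes after CCl4 against 1459.6, 1165, 1489 and 1619.7 CPM without it (change of the log2 difference 2.18, SE 0.397, adjusted p = 0.0446). For Glul, every macrophage library lay above every hepatocyte library after CCl4 and below every hepatocyte library without it. Gpcpd1 (change of the log2 difference 2.48, SE 0.398, adjusted p = 0.0300), Mcm10 (change of the log2 difference 3.26, SE 0.449, adjusted p = 0.0195) and the cytokine Il18 (change of the log2 difference 2.02, SE 0.384, adjusted p = 0.0475) made up the rest of the 6 named. Mcm10, a replication factor, had 28.2, 39.5 and 35.2 CPM in macrophages after CCl4 against 11.04, 10.4, 14.1 and 11.6 CPM without it, and 26.8, 29.6 and 12.2 CPM in hepatocytes after CCl4 against 49.0, 94.6, 87.6 and 64.2 CPM without it.

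The genes that moved down include macrophage and cell division genes that hepatocyte libraries held after CCl4 and hardly held without it. Ccl24 had 59.5, 97.1 and 86.2 CPM in macrophages after CCl4 against 94.3, 98.0, 119 and 139 CPM without it, and 3.21, 2.88 and 4.22 CPM in hepatocytes after CCl4 against 0, 0.251, 0 and 0 CPM without it (change of the log2 difference -4.99, SE 0.722, adjusted p = 0.0234). Cd53, a tetraspanin of leukocytes, had 153, 299 and 275 CPM in macrophages after CCl4 against 350.1, 434, 281 and 391 CPM without it, and 8.47, 3.65 and 19.8 CPM in hepatocytes after CCl4 against 1.40, 0.251, 0 and 1.05 CPM without it (change of the log2 difference -5.17, SE 0.956, adjusted p = 0.0467). Pla2g4a, a phospholipase, and Gpr65, an acid-sensing receptor of leukocytes, followed the same pattern (change of the log2 difference -5.45, SE 0.798, adjusted p = 0.0234, and change of the log2 difference -5.34, SE 0.872, adjusted p = 0.0316). Over the 4 uninjured hepatocyte libraries Ccl24 and Pla2g4a each held 1 count, Arhgap19 2, and Gpr65 and Cd53 3 each. The size of these changes therefore depends on the prior count of the fit. Beside them, the 23 macrophage and leukocyte genes summed in hepatocyte libraries to 646, 545 and 775 CPM after CCl4, against 361, 225, 75.3 and 107 CPM without it, and their part was not tested. Slpi, a secreted protease inhibitor, had 30.5, 83.3 and 9.72 CPM in macrophages after CCl4 against 264, 554, 149 and 88.2 CPM without it, and 82.5, 60.3 and 124 CPM in hepatocytes after CCl4 against 2.80, 22.6, 6.31 and 8.42 CPM without it (change of the log2 difference -6.02, SE 0.9505, adjusted p = 0.0300).

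Of 25 mitosis genes, 8 moved down and 0 up, with a median of -3.53: Cenpe, Top2a, Mki67, Tpx2, Aurkb, Kif23, Cdk1 and Prc1. In uninjured hepatocyte libraries 6, 7, 8 and 9 the 25 genes together held 11, 74, 179 and 15 counts. The size of these changes therefore also depends on the prior count of the fit. Over all 11563 genes 0.804% moved down, with a median of -0.28. A low median was not particular to mitosis: it was -3.42 for sinusoidal endothelial markers and -3.23 for stellate cell markers. It was -3.02 for chemokine ligands (4 of 19 down) and -2.72 for macrophage and leukocyte genes. List medians ran up to 0.57, for T, B and natural killer cell markers. Top2a, the topoisomerase of dividing cells, had 334, 308 and 296 CPM in macrophages after CCl4 against 20.6, 26.0, 41.5 and 26.4 CPM without it, and 504, 582 and 298 CPM in hepatocytes after CCl4 against 2.80, 2.01, 4.04 and 0 CPM without it (change of the log2 difference -4.16, SE 0.536, adjusted p = 0.0184). Mki67 had 185, 181 and 196 CPM in macrophages after CCl4 against 42.6, 17.3, 43.6 and 59.9 CPM without it, and 324, 343 and 193 CPM in hepatocytes after CCl4 against 1.40, 2.76, 7.58 and 3.16 CPM without it (change of the log2 difference -3.73, SE 0.507, adjusted p = 0.0195). For both genes every library after CCl4 lay above every library without it, in macrophages and in hepatocytes. Arhgap19, a regulator of RhoA in mitosis, had 23.7, 41.3 and 43.1 CPM in macrophages after CCl4 against 87.8, 58.2, 34.9 and 50.2 CPM without it, and 8.47, 5.76 and 13.9 CPM in hepatocytes after CCl4 against 0, 0.502, 0 and 0 CPM without it (change of the log2 difference -5.73, SE 0.776, adjusted p = 0.0195). The 26 replication genes summed to 971, 1174 and 1201 CPM in macrophages and 1174, 1089 and 1139 CPM in hepatocytes after CCl4. Without CCl4 they summed to 352, 348, 334 and 224 CPM in macrophages and 223, 323, 320 and 246 CPM in hepatocytes, and 1 of the 26, Mcm10, passed the interaction test. Cxcl10, the chemokine lower in macrophages after CCl4, had 38.2, 30.4 and 17.6 CPM in macrophages after CCl4 against 546, 253, 54.6 and 47.7 CPM without it, and 95.5, 88.1 and 42.2 CPM in hepatocytes after CCl4 against 28.0, 24.1, 10.9 and 11.6 CPM without it (change of the log2 difference -4.44, SE 0.511, adjusted p = 0.0168). Without CCl4 the order of the groups was the other way, with every macrophage library above every hepatocyte library.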

How the data were processed

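RNA was taken from sorted macrophages and purified hepatocytes of control mice, and libraries counted transcript 3′ ends, per the labels' protocols. The authors deposited raw counts per gene, 1 table per cell type, in which whole numbers are tags counted per gene. The submitters' processing notes name Trimmomatic 0.39, HISAT2 2.1.0 and the mouse build mm10 (GRCm38). The counter, the annotation and the use of strand were not given in the sources used here, so overlapping, antisense and near-identical genes are uncertain.

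Libraries were joined on the 22586 genes present in both tables. Groups came from the genotype and treatment labels, and pairs from the library number. Between same-numbered libraries, deviations from the group means correlated by 0.052, 0.023 and 0.014 for mice 12, 15 and 16. Between libraries of different numbers the correlations ran from -0.111 to 0.068, so these values do not bear out the pairing. edgeR 4.0.16 (R 4.3.3) was used with TMM factors, filterByExpr, a robust quasi-likelihood F test, the mouse as a block and Benjamini-Hochberg adjustment over all genes tested at 0.05. A second rule (glmTreat) asked for a difference beyond 2-fold, and a further test asked for the interaction of cell type and CCl4 over 14 libraries. Alternatives were other scalings and filters, no block, DESeq2 1.42.0, limma 3.58.1 (voom), thinning to the smallest total (905943 counts) and leaving out each mouse. Leaving out the macrophage library of mouse 12 was chosen after seeing the data. On simulated data with known changes, the cell type test recovered 2.17%, 50.0%, 80.5% and 91.5% of genes changed by 1, 2, 3 and 4 on the log2 scale (9444 genes). The interaction test recovered 0%, 18.8%, 50.0% and 61.2% (11456 genes). In these simulations 9268 of the 9444 genes and 11259 of the 11456 genes were left unchanged. In the data 38.8% of genes were called between the cell types, so the rates of the cell type test may not carry over to it.

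The genes named are the 5 of highest level in each cell type, the 8 called each way with the largest fold change at 100 CPM or more, up to 4 of lowest p per list with up to 2 in the opposite direction, and 6 each way for the interaction at 50 CPM or more. Other named genes, among them Hnf4a, Cyp2e1, Cyp7a1, Egfr, Hgf, Igf1, Mki67 and all genes given as not called, were chosen after their values were seen. The 44 gene lists and the comparison itself were chosen with earlier results of these data known. Promoters were matched by symbol for 79 of 111 named genes higher in macrophages and 53 of 77 lower. Some items are not reported here.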

Additional observations from a re-analysis of the deposited data

Results flagged for a closer look

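The difference between macrophages and hepatocytes changed with CCl4 for 103 genes in the interaction test (edgeR, adjusted p under 0.05). Among the genes named, the log2 difference was higher after CCl4 for Slc1a2 (4.33), Mcm10 (3.26), Glul (3.07), Gpcpd1 (2.48), Oat (2.18) and Il18 (2.02). It was lower after CCl4 for Slpi (-6.02), Arhgap19 (-5.73), Pla2g4a (-5.45), Gpr65 (-5.34), Cd53 (-5.17) and Ccl24 (-4.99). Of the genes named for other results, it was lower for the chemokine Cxcl10 (-4.44), the complement receptor C5ar1 (-3.81) and the interferon gamma receptor chain Ifngr1 (-2.84). It was also lower for the mitosis genes Aurkb (-7.65), Kif23 (-4.20), Top2a (-4.16), Mki67 (-3.73), Cenpe (-3.53), Tpx2 (-3.37), Cdk1 (-3.34) and Prc1 (-3.30). Over the alternative settings the value ran from -7.87 to -4.83 for Aurkb and from -6.97 to -3.28 for Kif23. All 25 mitosis genes together held 11, 74, 179 and 15 counts in uninjured hepatocyte libraries 6, 7, 8 and 9. The sizes given for mitosis genes therefore depend on the prior count of the fit.

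Single uninjured libraries stood apart from the other 3 of their group. Il18 had 37.4 CPM in the macrophages of mouse 9. In the hepatocytes of mouse 7, Arhgap19 had 0.502 CPM, Gpr65 and Kif23 0.753 CPM each, and Pla2g4a and Ccl24 0.251 CPM each, which are 1 to 3 counts. Mitosis genes summed to 45.2 CPM in the hepatocytes of mouse 8. Replication genes summed to 223.5 CPM in the macrophages of mouse 9. In all, 8 of 57 groups of 4 libraries held such a sample, and chance gives about 1 in 20. That rate does not apply where the other libraries of a group held no count, since any count then stands apart. This was so in hepatocytes for Arhgap19, Gpr65, Pla2g4a and Ccl24, so the 8 of 57 cannot be read against that rate.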

How the results depend on the processing

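The count of 4145 genes called between the cell types ran from 551 to 4543 when 1 mouse was left out, and was 1927 when all libraries were thinned to the smallest total, where fewer counts per library are tested. The count of 2189 beyond 2-fold ran from 0 to 3046 when 1 mouse was left out. It was 972 after thinning and 3439 without the macrophage library of mouse 12 and with no block. The interaction count of 103 ran from 0 to 906 when 1 mouse was left out. It was 176 with library totals, 1209 with no filter on low counts, 661 in DESeq2, 173 in limma voom, 2 after thinning and 1241 without the macrophage library of mouse 12 and with no block. The causes were not tested. With no mouse as a block, the counts were 4756 between the cell types, 2546 beyond 2-fold and 345 for the interaction. Both counts between the cell types stayed within 1.5 times under the other scalings, filters and tools run. Of 265 named genes and 16 alternatives, 3826 values kept their side of the threshold, 306 lost the call and 68 gained it, and 0 called values changed sign. Without mouse 15, 127 genes lost the call, and without mouse 16, 74 did. For 23 named interaction genes, 268 values kept and 146 lost the call. Of 34 summed marker levels, 12 moved by over 1 SD with library totals. The smallest macrophage library, of mouse 12, limits low transcripts, since 3 counts there were worth 3.31 CPM.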
